A study of Homo sapiens with 15 samples.

Results

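The transcripts described here encode 8 secreted signals that colorectal tumor cells can send to their surroundings. They are the chemokines CXCL1, CXCL2, CXCL3, CXCL8 and CXCL16 and the cytokines IL18, IL32 and LIF. They were picked by symbol, matched through the Ensembl identifier of each row, and are 8 of the 60664 genes in the deposited table. All 8 were also among the 14899 genes that could be tested, those with at least 1 TPM in at least 3 libraries. The cells are HCT116, an established human colorectal carcinoma line that the labels describe as WT. Libraries from cells exposed to an OPWP extract of Apulian (AE), Tuscan (TE) or Sicilian (SE) origin, or to pure hydroxytyrosol (HTyr), were set against libraries from untreated cells. OPWPs are the wastes left by olive milling, and HTyr is their main phenol. Each agent was given at 0.0154 mg/mL for 72 h, and each of the 5 groups has 3 libraries of poly(A) RNA. The titles of the TE and SE libraries also carry short codes, and the initial in each code points to the opposite region. The region names and descriptions were followed, and if the codes were right, every TE value and every SE value below would swap.

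CXCL1, CXCL2, CXCL3 and CXCL8 (interleukin 8) belong to the CXC chemokines with an ELR motif, which draw neutrophils through the receptors CXCR1 and CXCR2. Their genes lie together on chromosome 4, are switched on by NF-kB, and give short-lived mRNAs that the decay factor ZFP36 helps to remove. CXCL16 is made as a membrane protein, is cut free by the proteases ADAM10 and ADAM17, and binds CXCR6 on T cells. IL18 is stored in intestinal epithelium as an inactive precursor, which inflammasomes and inflammatory caspases cleave. LIF is an IL-6 family cytokine that signals through LIFR and IL6ST, and IL32 is a proinflammatory cytokine that is found largely inside cells.

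The promoters of the ELR chemokines are shown because these members share an NF-kB element and yet differed in their values. The motif GGAATTTCC, the core of that element, was searched on both strands in the 250 bases before the start site of each gene in the RefSeq annotation of GRCh38.p14. It occurred once in each of the promoters of CXCL1, CXCL2, CXCL3 and CXCL8, and in 117 of 27305 promoters, or 0.428%, in all. Since the motif was taken from the element these members share, finding it there is a description and not a test. In CXCL1, CXCL2 and CXCL3, but not in CXCL8, it followed a further G, as it did in 0.157% of promoters. IL32 had no match. The promoter table lists 5 of the 8 members, and CXCL16, IL18 and LIF are named here only. Each sequence below is on the strand of its gene, 5′ to 3′, with the motif in capitals and 10 bases on either side.
CXCL1, plus strand, chr4:73869305-73869333: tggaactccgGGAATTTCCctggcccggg
CXCL2, minus strand, chr4:74099254-74099282: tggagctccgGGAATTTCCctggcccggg
CXCL3, minus strand, chr4:74038749-74038777: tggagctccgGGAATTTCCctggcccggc
CXCL8, plus strand, chr4:73740468-73740496: tgcaaatcgtGGAATTTCCtctgacataa
The motif ended 70 bases before the RefSeq start site in CXCL1 and CXCL3, 69 bases before it in CXCL2 and 83 bases before it in CXCL8. The bases around the motif were nearly the same in CXCL1, CXCL2 and CXCL3, and different in CXCL8. The gene spans given further below are from GENCODE, which starts CXCL3 and CXCL8 elsewhere. Its CXCL3 span, 74036589 to 74038807, contains the stretch shown above, so there the motif lies within the gene. Its CXCL8 start, 73740519, is closer to the motif than the RefSeq start is.

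The 15 libraries had 13653 to 14034 genes at 1 TPM or more. TPM is an abundance corrected for transcript length and scaled to the same total in every library, so the depth of each library is unknown. Of 9 colorectal epithelial markers, 7 reached 1 TPM, among them EPCAM, CDH1, KRT8, KRT18 and KRT19, while VIL1 stayed at or under 0.23 TPM and CEACAM5 at or under 0.06 TPM. The summed level of the 9 markers was 2308 to 3145 TPM in treated libraries and 4197 to 4243 TPM in untreated ones, and its part in the results below was not tested. None of 8 leukocyte markers reached 1 TPM. Their summed level was 0.07 to 0.63 TPM in treated libraries and 0 to 0.63 TPM in untreated ones, with MS4A1 and FCGR3B at 0 throughout. The fibroblast list summed to 4.47 to 9.02 TPM in treated and 6.34 to 8.01 TPM in untreated libraries, mostly COL1A1, with COL1A2 at 0, and the endothelial list to at most 0.22 TPM. In RNA from a whole culture, fewer cells that express a gene and less RNA per cell cannot be told apart.

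Members divided into an abundant and a scarce set. IL18 averaged 90.94 TPM over the 15 libraries, LIF 69.43 TPM and CXCL16 48.15 TPM. The range of LIF over libraries overlapped with those of both its neighbours, which did not overlap with each other, from 63.51 to 140.81 TPM for IL18, from 54.61 to 85.58 TPM for LIF and from 38.64 to 59.38 TPM for CXCL16. The other 5 stood far lower, with means of 3.365 TPM for IL32, 2.107 TPM for CXCL8, 1.359 TPM for CXCL1, 1.29 TPM for CXCL2 and 1.241 TPM for CXCL3. Among the genes tested, the mean of IL18 lay above 91.9% and that of CXCL3 above 9.8%. CXCL2 reached 1 TPM in 10 libraries, CXCL1 and CXCL3 in 11 each and the remaining members in all 15. The other chemokine ligands were close to undetected. Of 33 listed, all stayed under 1 TPM in every library, 19 were listed at 0 throughout, CXCL5, CXCL12 and CCL2 among them, and the highest value was 0.94 TPM for CCL27.

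**Figure D1:**
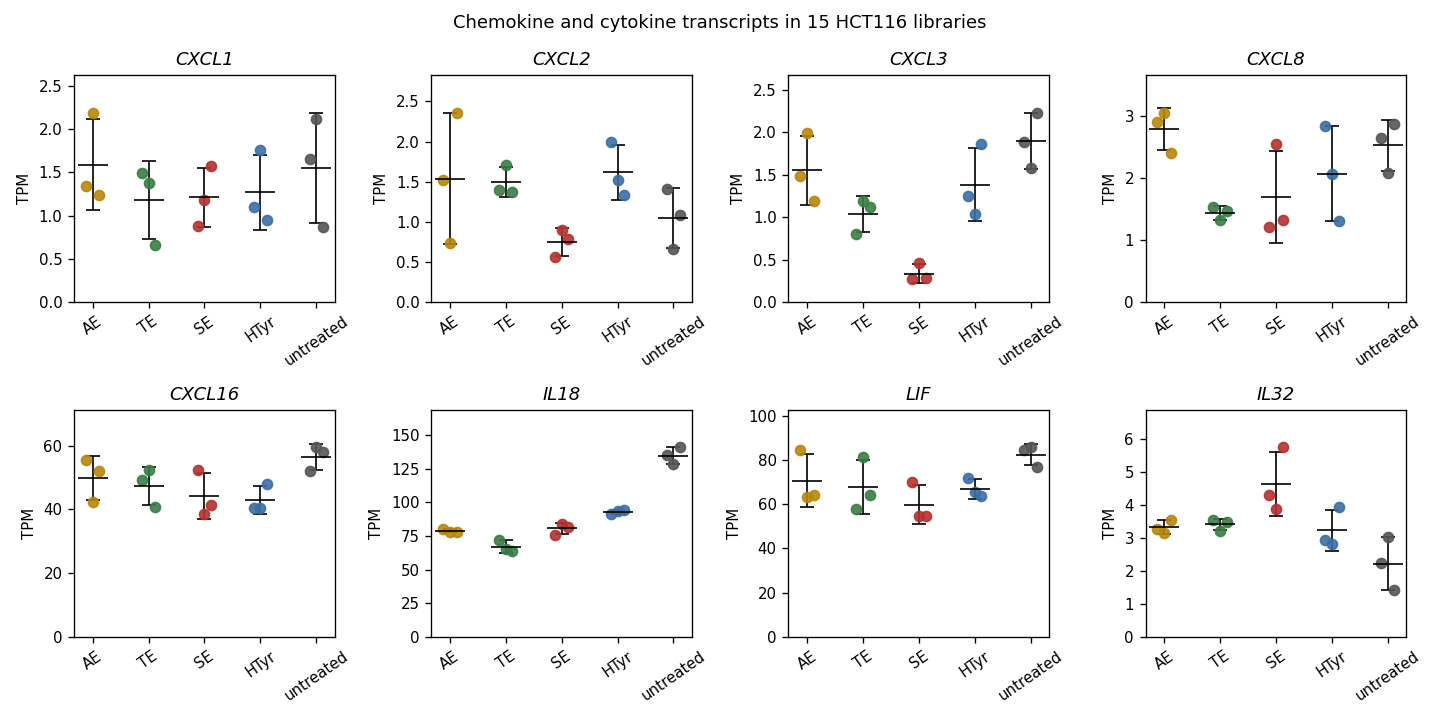
TPM of each of the 8 transcripts (y axis from 0, on a scale of its own in each panel) in the 3 libraries of each group, with points for libraries and bars for the mean and SD. All 12 treated libraries lie below the untreated ones for IL18, and the SE libraries lie at 0.27 to 0.46 TPM for CXCL3, below the other 12.

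A gene was called changed at a limma adjusted p under 0.05, taken over all genes tested, and a change of more than 1.5-fold on log2(TPM + 0.5), a scale that understates the change of scarce transcripts. With SE, 3 of the 8 members were called, IL18 and CXCL3 lower and IL32 higher, where 28.0% of all genes were. With TE, 2 were called, IL18 and CXCL3, both lower, where 12.7% of all genes were. AE changed 1 member, IL18, against 16.6% of all genes. With HTyr none was called, against 16.2% of all genes. At an adjusted p under 0.05 whatever the fold, 2 members passed with HTyr, IL18 and CXCL16, against 39.4% of all genes, and 4 had an unadjusted p under 0.05. In the mean of the 4 treatments the 3 members called with SE were called again, against 17.9% of all genes. The median log2 fold change of the members was -0.07 for AE, -0.285 for TE, -0.41 for SE and -0.29 for HTyr, and -0.31 in the mean of the 4 treatments. Over all genes tested the median was 0.09 for AE, 0.05 for TE, 0.09 for SE and -0.04 for HTyr, and 0.05 in the mean. As deposited, 1601 genes were called higher and 865 lower with AE, and after median-ratio scaling of the libraries 1207 and 1154. For SE these numbers were 2532 and 1636 as deposited, and 2006 and 2049 after scaling.

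**Figure D2:**
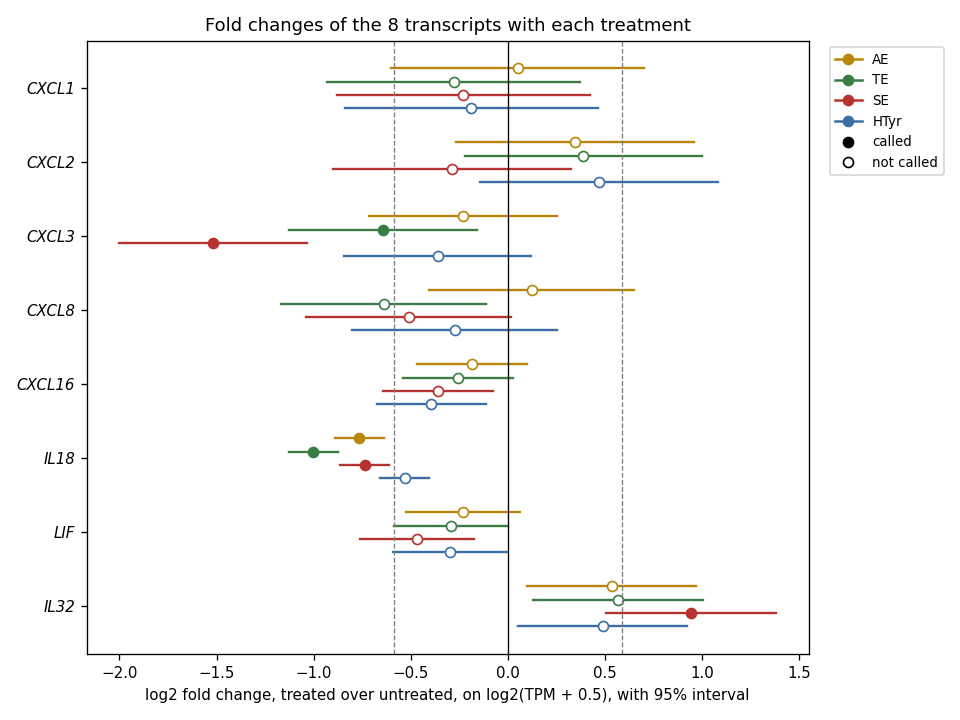
Log2 fold change of each transcript with AE, TE, SE and HTyr over untreated cells on the log2(TPM + 0.5) scale (x axis), with 95% intervals. Filled points passed the call, dashed lines mark 1.5-fold, and IL18 is left of 0 with all 4 treatments while IL32 is right of it.

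IL18 (ENSG00000150782, minus strand of chromosome 11, 112143253 to 112164096), the most abundant member, was lower with every treatment. It had 80.56, 78.12 and 78.31 TPM in AE libraries, and 72.23, 65.69 and 63.51 TPM in TE libraries. SE libraries had 75.94, 84.18 and 81.85 TPM, and HTyr libraries 91.37, 93.34 and 94.54 TPM. Untreated libraries had 135.5, 128.18 and 140.81 TPM. Every treated library thus lay below every untreated library, as was so for 11.8% of all genes tested. The ratio of the treated mean to the untreated mean was 0.586 for AE, 0.498 for TE, 0.598 for SE and 0.691 for HTyr. IL18 fell with AE (log2 fold change -0.77), TE (-1.002) and SE (-0.74), each with a standard error of 0.059 and limma adjusted p values of 4.38e-07, 1.02e-07 and 1.74e-07. With HTyr its log2 fold change was -0.53 (limma adjusted p = 1.32e-05), which is under 1.5-fold and so not a call. In the mean of the 4 treatments it fell by 0.76 ± 0.046 (standard error) on the log2 scale (limma adjusted p = 2.18e-08).

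IL18 also differed between treatments. From low to high the means ran 67.14 ± 4.538 TPM with TE, 79.0 ± 1.357 TPM with AE, 80.66 ± 4.248 TPM with SE and 93.08 ± 1.601 TPM with HTyr (SD, n = 3 each), and untreated cells had 134.8 ± 6.342 TPM. Against HTyr, the log2 difference was -0.24 for AE (limma adjusted p = 0.0270), -0.47 for TE (0.00104) and -0.21 for SE (0.0177). Under median-ratio scaling, which moved the median of all genes by -0.116 for AE and -0.127 for SE against HTyr, these 3 differences were -0.36, -0.54 and -0.34. All were under 1.5-fold. Over the alternatives the adjusted p reached 0.084 for AE, 0.0494 for TE and 0.0726 for SE, so those of AE and SE did not pass throughout. IL18 was also higher with SE than with TE, by 0.26 on the log2 scale (limma adjusted p = 0.00445, and up to 0.0899 with quantile normalization). The neighbours AE and TE differed by 0.23 (95% interval 0.11 to 0.36), which did not pass adjustment over all genes (limma adjusted p = 0.132). SE and AE differed by 0.03, with an interval of -0.10 to 0.15.

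The transcripts that process, release or bind the members were measured too. Of 20 listed receptors, binding proteins and processing enzymes of the members, 11 were tested. In the mean of the 4 treatments none was called higher and 1 was called lower, where 17.9% of all genes were called, and the median of the 11 was -0.25 against 0.05 over all genes. That gene was NLRP1, an inflammasome sensor of epithelial cells. It averaged 2.847 TPM with AE, 2.987 TPM with TE, 1.857 TPM with SE and 3.23 TPM with HTyr, against 7.933 TPM in untreated cells. It fell with each of the 4, by 1.42 ± 0.16 (standard error) on the log2 scale in their mean (limma adjusted p = 5.77e-06). The other inflammasome components were scarce or absent. PYCARD, the adaptor, was listed at 0 in all libraries, and CASP1, the IL18-converting enzyme, had at most 0.17 TPM. CASP4, an inflammatory caspase that can also cleave IL18 in human cells, averaged 33.66 TPM with AE, 31.66 TPM with TE, 31.09 TPM with SE and 30.96 TPM with HTyr, against 28.71 TPM in untreated cells, and was not called. CASP8, an apoptotic caspase, had a log2 fold change of 0.41 in the mean of the 4 (limma adjusted p = 0.000201), under 1.5-fold. GSDMD, the pore protein through which mature IL18 leaves cells, and IL18BP, the soluble decoy receptor, had values of 0.09 and -0.25 and were not called. IL18R1, the ligand-binding receptor chain, fell with HTyr (log2 fold change -0.67, limma adjusted p = 0.0242), with 0.6533 TPM there against 1.34 TPM in untreated cells. It was not called with AE, TE or SE, at -0.46, -0.43 and -0.31, nor between any of these and HTyr. Its partner IL18RAP reached no more than 0.22 TPM.

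CXCL3 (ENSG00000163734, minus strand of chromosome 4, 74036589 to 74038807) was the ELR chemokine with called changes. SE libraries had 0.27, 0.46 and 0.28 TPM. The values were 1.48, 1.99 and 1.19 TPM with AE, 0.8, 1.19 and 1.12 TPM with TE and 1.25, 1.04 and 1.86 TPM with HTyr. Untreated libraries had 1.88, 1.58 and 2.23 TPM. The 3 SE libraries lay below the other 12, as was so for 5.27% of all genes tested, and the TE libraries also lay below the untreated ones, while AE and HTyr overlapped with them. CXCL3 fell with SE (log2 fold change -1.52 ± 0.22, standard error, limma adjusted p = 6.79e-05). That value was -2.21 with a pseudocount of 0.1 and -1.11 with one of 1, and the ratio of the SE mean to the untreated mean was 0.177. It also fell with TE (-0.64, limma adjusted p = 0.0409), but this call was lost in 11 of 24 alternatives, over which its adjusted p ran from 0.0194 to 0.138. It ended with pseudocounts of 0.1 and 1, with no filter, without mitochondrially encoded genes, with the replicate number as a block and without any of 6 libraries, untreated 1 or 3, AE 1 or TE 1, 2 or 3. With AE and HTyr it stood at -0.23 and -0.36 and was not called.

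CXCL3 was also the member called between treatments. It was lower with SE than with HTyr by 1.15 on the log2 scale (limma adjusted p = 0.00184), where 7.36% of all genes were called. The log2 difference of SE was -1.28 from AE (0.00138, 4.72% of all genes called) and -0.88 from TE (0.0107, 8.36% called). No member was called between AE and HTyr, TE and HTyr or AE and TE, where 1.34%, 0.705% and 0.0873% of all genes were, and 1, 1 and 2 members had an unadjusted p under 0.05 in limma. CXCL3 is a scarce transcript, with a mean of 0.3367 TPM under SE against 1.037 to 1.553 TPM under the other treatments, and the depth behind these values is not known. Averaged over the 4 treatments, it fell by 0.69 on the log2 scale (limma adjusted p = 0.00535), a call lost with a pseudocount of 1.

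**Figure D3:**
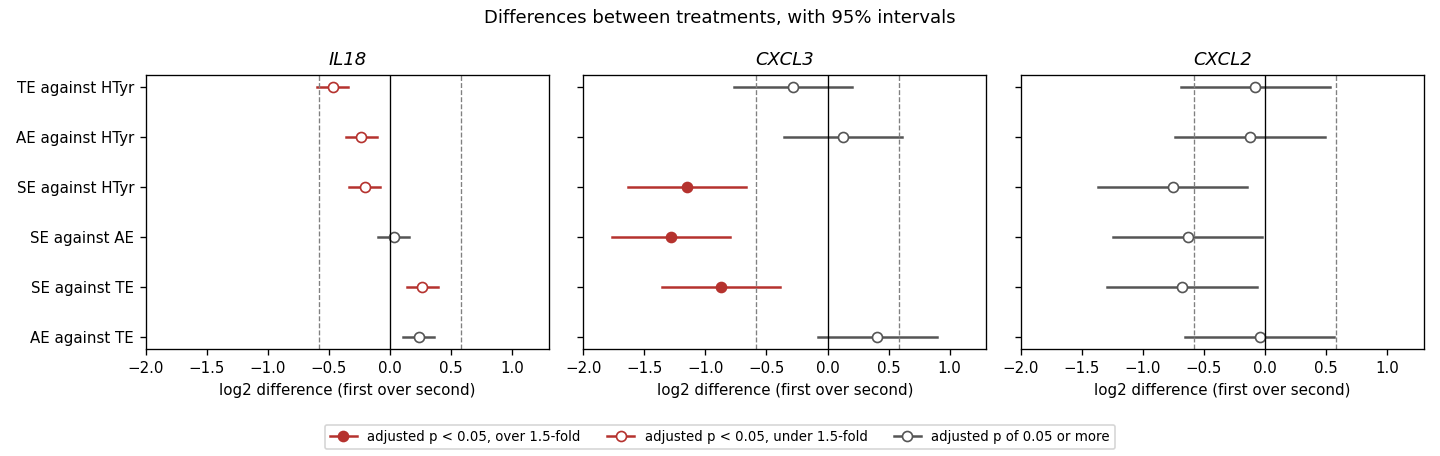
Log2 difference between treatments, the one named first over the other (x axis), with 95% intervals, for IL18, CXCL3 and CXCL2 in the 6 pairs. CXCL3 passed the call in the 3 pairs with SE, and IL18 was lower than under HTyr with all 3 extracts, by less than 1.5-fold (dashed lines).

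CXCL2 (ENSG00000081041, minus strand of chromosome 4, 74097040 to 74099196) was not called in any comparison. Its levels were 1.52, 0.74 and 2.36 TPM with AE, 1.4, 1.71 and 1.37 TPM with TE, 0.56, 0.9 and 0.79 TPM with SE and 2.0, 1.52 and 1.33 TPM with HTyr. Untreated libraries had 1.41, 0.66 and 1.08 TPM. SE was again the lowest group, but it overlapped with untreated cells. On the log2 scale AE, TE, SE and HTyr stood at 0.34, 0.39, -0.29 and 0.47 over untreated cells, with 0.28 as the standard error of each. The difference of SE from HTyr was -0.76, with a 95% interval of -1.37 to -0.15 and a limma adjusted p of 0.0626.

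CXCL1 (ENSG00000163739, plus strand of chromosome 4, 73869393 to 73871308) showed no called change either. It had 1.34, 2.19 and 1.24 TPM with AE, 1.49, 1.38 and 0.66 TPM with TE, 0.88, 1.18 and 1.57 TPM with SE and 1.1, 1.76 and 0.95 TPM with HTyr. Untreated libraries had 1.66, 2.12 and 0.87 TPM, and all 4 treatments overlapped with that range. On the log2 scale the changes in the same order were 0.05, -0.28, -0.23 and -0.19 (each with a standard error of 0.30), and the sign with AE turned under median-ratio scaling (-0.0188). The 95% intervals ran from -0.60 to 0.70 with AE and were as wide with the other treatments.

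CXCL1, CXCL2 and CXCL3 are close paralogs, and how reads shared between them were divided could change their values. In GENCODE 44 no stretch of 100 bases in the protein-coding transcripts of any of them recurred in another gene. Summed into 1 feature, the 3 paralogs fell with SE by 0.85 ± 0.14 (standard error) on the log2 scale (limma adjusted p = 0.000211). The sum was not called with AE, TE or HTyr, at 0.05, -0.25 and -0.06. It also differed between SE and each other treatment, by -0.79 from HTyr, -0.91 from AE and -0.60 from TE (limma adjusted p = 0.00118, 0.000677 and 0.00722).

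CXCL8 (ENSG00000169429, plus strand of chromosome 4, 73740519 to 73743716) was lowest in the TE libraries as a group. They had 1.53, 1.32 and 1.47 TPM, all below untreated libraries at 2.65, 2.08 and 2.88 TPM, a separation downward that 20.0% of all genes showed with TE. AE libraries had 2.91, 3.06 and 2.41 TPM, SE libraries 1.21, 2.55 and 1.32 TPM and HTyr libraries 2.84, 2.07 and 1.31 TPM, and all of these groups overlapped with untreated cells. The log2 fold change was -0.64 ± 0.24 (standard error) with TE, with a limma adjusted p of 0.0592, so no call was made. It was called in 5 of 25 alternatives, over which the adjusted p ran from 0.0277 to 0.157. With AE, SE and HTyr the values were 0.12, -0.51 and -0.27. Without SE replicate 2, the library at 2.55 TPM, the SE value was -0.77 and was called (limma adjusted p = 0.0148, and 0.0148 to 0.293 over its alternatives). AE and TE differed by 0.76 (95% interval 0.23 to 1.29), which did not pass adjustment over all genes (limma adjusted p = 0.240). The receptors of the ELR chemokines were barely detected, with at most 0.21 TPM for CXCR1 and 1.09 TPM for CXCR2, and ACKR1, a chemokine scavenger, was listed at 0.

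CXCL16 (ENSG00000161921, minus strand of chromosome 17, 4733533 to 4739928) was the abundant chemokine of these cells. It had 55.42, 42.27 and 52.0 TPM with AE, 49.17, 52.17 and 40.66 TPM with TE, 52.3, 38.64 and 41.43 TPM with SE and 40.28, 40.54 and 47.92 TPM with HTyr. Untreated libraries had 51.88, 59.38 and 58.12 TPM. The HTyr libraries lay below the untreated ones, as did 26.7% of all genes with HTyr, and the extracts overlapped with them. Its log2 fold changes stood at -0.18, -0.26, -0.36 and -0.39 for AE, TE, SE and HTyr (standard error 0.13). Those with SE and HTyr had limma adjusted p values of 0.0330 and 0.0290 but were under 1.5-fold, and none was called. In GENCODE 44 its ends overlap MED11 (10.91 to 17.38 TPM) and ZMYND15 (0.73 to 1.85 TPM) on the opposite strand, and the strand setting of the counting was not stated in the methods.

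The proteases that release CXCL16 were abundant. ADAM10 averaged 106.0 TPM with AE, 105.5 TPM with TE, 90.37 TPM with SE and 77.36 TPM with HTyr, against 114.1 TPM in untreated cells. Its log2 fold change with HTyr was -0.56 (limma adjusted p = 0.000435). ADAM17 averaged 35.73, 31.7, 25.35 and 25.05 TPM in the same order, against 36.56 TPM in untreated cells, with log2 fold changes of -0.52 with SE and -0.54 with HTyr (limma adjusted p = 8.11e-06 and 1.66e-05). All of these changes were under 1.5-fold and none was a call. The receptor CXCR6 had no more than 0.08 TPM in any library.

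IL32 (ENSG00000008517, plus strand of chromosome 16, 3065297 to 3082192) had fold changes of the opposite sign to those of IL18. It had 3.28, 3.14 and 3.55 TPM with AE, 3.54, 3.22 and 3.47 TPM with TE, 4.29, 3.87 and 5.74 TPM with SE and 2.94, 2.82 and 3.94 TPM with HTyr. Untreated libraries had 2.23, 3.03 and 1.41 TPM, a wide spread for 1 group. The AE, TE and SE libraries lay above all of the untreated ones, which 30.5%, 26.7% and 34.3% of all genes did, and the HTyr libraries overlapped with them. IL32 rose with SE (log2 fold change 0.94 ± 0.20, standard error, limma adjusted p = 0.00141). With AE, TE and HTyr the values were 0.53, 0.57 and 0.49 (limma adjusted p = 0.0506, 0.0450 and 0.0717), none of them a call. Averaged over the 4 treatments, it rose by 0.63 ± 0.16 (standard error) on the log2 scale (limma adjusted p = 0.00475).

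Apart from SE, the calls of IL32 turned with the settings. With a pseudocount of 0.1 it was called with AE (0.62) and TE (0.66), without mitochondrially encoded genes with TE (0.62), and with a pseudocount of 1 its mean over the 4 treatments was 0.54 and no call. Without untreated replicate 2, the highest at 3.03 TPM, the values were 0.74 with AE, 0.78 with TE and 0.70 with HTyr, and all 3 were called. Without untreated replicate 3, the lowest at 1.41 TPM, the mean of the 4 treatments was 0.40 and was not called. The call with SE held in all 25 alternatives, with values between 0.71 and 1.15. PRTN3, the serine protease that binds IL32, averaged 0.8233 TPM with AE, 0.83 TPM with TE, 0.91 TPM with SE and 0.7933 TPM with HTyr, against 0.9933 TPM in untreated cells, and was not called.

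LIF (ENSG00000128342, minus strand of chromosome 22, 30240453 to 30246759) had 84.36, 63.32 and 64.19 TPM with AE, 57.85, 81.28 and 64.05 TPM with TE, 69.85, 54.67 and 54.61 TPM with SE and 71.75, 65.28 and 63.48 TPM with HTyr. Untreated libraries had 84.34, 85.58 and 76.87 TPM. SE and HTyr libraries lay below the untreated ones, where 23.2% and 26.7% of all genes did so, and 1 library each of AE and TE reached into their range. Its log2 fold change was -0.23 for AE, -0.29 for TE, -0.47 for SE and -0.30 for HTyr (standard error 0.14). The value with SE had a limma adjusted p of 0.0108 and was under 1.5-fold, as was the mean of the 4 treatments at -0.32 (0.0236). After quantile normalization the value with SE was -0.62 and was called (limma adjusted p = 0.00196, and 0.00196 to 0.0449 over its alternatives).

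The receptor of LIF was measured in the same cells. LIFR averaged 4.627 TPM with AE, 4.073 TPM with TE, 4.713 TPM with SE and 4.557 TPM with HTyr, against 5.91 TPM in untreated cells, with -0.36 in the mean of the 4 (limma adjusted p = 0.0197) and no call. IL6ST, the shared signalling chain, had -0.03 and was not called. SOCS3, the feedback inhibitor that LIF and related cytokines induce through STAT3, was lower in all 4. It averaged 10.79 ± 1.116 TPM with AE, 12.44 ± 0.6899 TPM with TE, 7.777 ± 0.2501 TPM with SE and 10.16 ± 0.5092 TPM with HTyr, against 20.12 ± 1.523 TPM in untreated cells (SD, n = 3 each). It fell by 0.95 on the log2 scale in the mean of the 4 treatments (limma adjusted p = 9.99e-08).

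All 25 listed NF-kB and mRNA decay regulators of chemokine genes were tested. With SE, 4 of them rose and 10 fell, with a median of -0.22, where 2532 of 14899 genes rose and 1636 fell with a median of 0.09. AE raised 2 and lowered 5, against 1601 and 865 of all genes. TE raised 1 and lowered 5, against 1112 and 784, and HTyr raised 1 and lowered 4, against 1162 and 1259. ZFP36, which destabilises chemokine mRNAs, averaged 29.94 TPM with AE, 33.87 TPM with TE, 17.95 TPM with SE and 27.36 TPM with HTyr, against 67.89 TPM in untreated cells. It fell by 1.34 on the log2 scale in the mean of the 4 (limma adjusted p = 1.15e-08). JUN, an AP-1 subunit that acts with NF-kB at the CXCL8 promoter, fell by 1.32 (1.93e-08), and most with SE, where it had 4.657 TPM against 23.1 TPM in untreated cells. BIRC3, an NF-kB target that regulates its signalling, fell by 1.01 (9.55e-06). With SE the NF-kB cofactor BCL3 fell by 0.94 and the subunit NFKB2 by 0.79, and neither was called with AE, TE or HTyr. NFKB2 was not called between SE and any other treatment, and its means were 44.99, 47.35, 37.16 and 47.61 TPM with AE, TE, SE and HTyr, against 64.62 TPM in untreated cells. The subunit RELA had a log2 fold change of -0.23 in the mean of the 4 and NFKB1 of 0.22, neither a call. RELB, a further subunit, was called lower in the mean of the 4, with SE and with HTyr. It averaged 6.443, 6.33, 5.337 and 5.713 TPM with AE, TE, SE and HTyr, against 9.283 TPM in untreated cells. NFKBIA, the inhibitor that holds NF-kB in the cytoplasm, rose with AE (0.69) and SE (0.73). With TE and HTyr it was not called, but its means were also above that of untreated cells. They were 33.56, 29.86, 34.39 and 26.44 TPM with AE, TE, SE and HTyr, against 20.56 TPM. IKBKG, the 1 regulator on this list called higher in the mean of the 4, rose with each treatment. It averaged 10.34 TPM with AE, 9.597 TPM with TE, 9.25 TPM with SE and 9.133 TPM with HTyr, against 5.853 TPM in untreated cells.

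**Figure D4:**
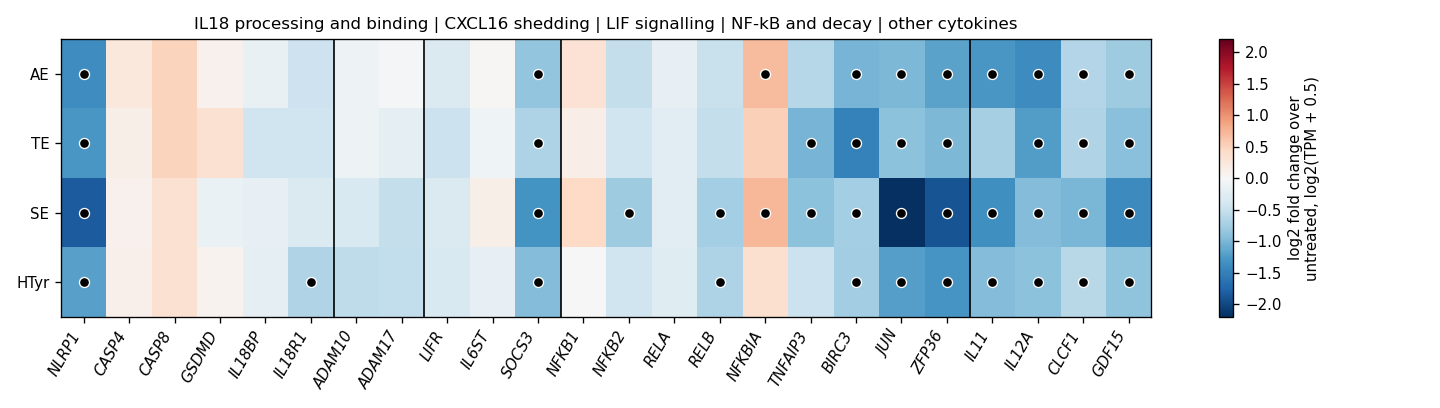
Log2 fold change over untreated cells (colour, log2(TPM + 0.5) scale) of 24 partner and regulator transcripts with AE, TE, SE and HTyr. Dots mark calls, and NLRP1, SOCS3, BIRC3, JUN, ZFP36, IL12A, CLCF1 and GDF15 are dotted in all 4 rows. The 24 are a selection and do not stand for their whole lists. Called genes not shown include IKBKG, higher with all 4 treatments, EBI3 and CNTF, higher with SE, and FOSL1, BCL3 and TSLP, which fell.

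Of 25 receptors and signalling genes of inflammatory cytokines, 20 were tested. In the mean of the 4 treatments 3 rose and 3 fell, with a median of -0.18, against 1554 and 1107 of 14899 genes and a median of 0.05. SOCS3, IL1RAP and IL6R fell. IL1RAP, the accessory chain of the IL-1 receptor, fell by 0.86 (limma adjusted p = 0.000482), and IL6R, the IL-6 receptor, by 0.81 (1.64e-05). TRAF2, MYD88 and TLR3 rose. TLR3, a sensor of double-stranded RNA, had 2.343 TPM with SE against 0.6767 TPM in untreated cells, and rose with SE by 1.26 on the log2 scale (limma adjusted p = 0.00113). TNFRSF1A, the main TNF receptor, fell by 0.68 with SE, was not called with AE, TE or HTyr, at -0.41, -0.18 and -0.50, and was not called between treatments.

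Other cytokine genes were also measured. Of 39 listed, 24 stayed under 1 TPM in every library, with IL1B, IL6 and CSF3 among 6 listed at 0, and 15 were tested. In the mean of the 4 treatments none rose and 5 fell, where 1554 of 14899 genes rose and 1107 fell, with a median of -0.08 against 0.05 over all genes. GDF15, a stress-induced cytokine, averaged 358.2 ± 26.91 TPM with AE, 324.4 ± 10.98 TPM with TE, 232.9 ± 12.07 TPM with SE and 334.8 ± 37.48 TPM with HTyr, against 615.9 ± 47.72 TPM in untreated cells (SD, n = 3 each). It fell by 0.996 on the log2 scale (limma adjusted p = 4.34e-08). IL12A, a subunit of IL-12 and IL-35, fell by 1.11 (4.93e-05) and IL11, an IL-6 family cytokine, by 1.07 (0.00121). CLCF1, also of the IL-6 family, and TSLP, an epithelial cytokine, were the other two that fell. EBI3, the partner subunit of IL12A in IL-35, rose with SE by 1.13 (limma adjusted p = 0.0236), and CNTF, a further IL-6 family cytokine, by 0.66 (0.0322). Neither was called with AE, TE or HTyr. EBI3 averaged 0.3467 TPM with AE, 0.4333 TPM with TE, 1.507 TPM with SE and 1.06 TPM with HTyr, against 0.43 TPM in untreated cells. It was not called between SE and HTyr. CNTF stood at 0.59, 0.53 and 0.18 with AE, TE and HTyr, and was not called between SE and any other treatment.

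Across the 15 libraries the members did not share a single profile. On the log2 scale Pearson's r was 0.712 between CXCL16 and LIF, 0.526 between CXCL3 and CXCL8, -0.732 between CXCL3 and IL32 and -0.651 between IL18 and IL32. Among the ELR chemokines it was 0.151 between CXCL1 and CXCL3, 0.319 between CXCL2 and CXCL3 and -0.188 between CXCL1 and CXCL2. These values are descriptions, since the points share 5 groups and a fixed total per library. The genes most like IL18, among those tested with a mean of at least 5 TPM, were LIMA1 (r = 0.961), PLCXD2 (0.953) and WASF2 (0.946), each over 15 libraries. For CXCL16 they were SOCS2 (0.933), ARF1 (0.925) and MYH14 (0.918), and for LIF SOX9 (0.893), ARPC4-TTLL3 (0.884) and MYADM (0.881). For CXCL3 they were LINC00963 (0.918), TEF (0.916) and RSL24D1 (0.907), and for IL32 PTMAP2 (0.903), FARS2 (0.902) and NT5DC2 (0.892). The closest gene reached 0.784 for CXCL8 (ZNF251), 0.781 for CXCL2 (KCNN4) and 0.752 for CXCL1 (POC1B).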

How the data were processed

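HCT116 cells were left untreated or treated for 72 h, with 3 libraries per group (TruSeq stranded mRNA). Reads were clipped and trimmed by the authors with Scythe and Sickle and aligned with STAR, and RSEM abundances of Ensembl genes followed. The submitters' processing notes name GRCh38, STAR and RSEM. Their versions: not given in the sources used here. TPM is what was deposited, scaled by the authors to the same total in each library (999999.51 to 1000000.95) and rounded to hundredths. TPM keep no depth, so no counting error can be given. No 2 libraries were identical.

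Groups were taken from the sample labels. With log2(TPM + 0.5) as the measure, limma 3.58.1 (R 4.3.3) was run on the 14899 genes that reached 1 TPM in 3 or more of 15 libraries, leaving out 45765. The fit had 1 mean per group, 10 residual degrees of freedom and a trend of variance with level. Its 11 comparisons set each treatment, and the mean of the 4, against untreated cells, and the treatments against each other. Calls needed a Benjamini-Hochberg adjusted p under 0.05 and more than 1.5-fold. The labels say biological replicates without saying how the cultures were made, so p-values cover the spread between these samples, which may be technical. The script was tested on simulated data. Same-numbered libraries did not deviate together. Of 30 such pairs, 3 correlated above 0.1.

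Members and lists were chosen with earlier results of these data known. All members and their measured partners may be named. From each other list the text names up to 3 genes with the largest change, averaged over treatments, and up to 2 called with a single treatment. CLCF1, TSLP, RELA, RELB, NFKB1, NFKBIA, NFKBIE, IKBKG, CEBPB, FOSL1, TRAF2 and MYD88 were named after their values were seen. Coordinates are those of GENCODE 44 on GRCh38, and tables were made with Python 3.11.15. The alternatives were pseudocounts of 0.1 and 1, no filter, a filter at a mean of 5 TPM, scaling by median ratio or quantiles, no mitochondrially encoded genes, each library left out, 2-group fits, a replicate block, no trend and the CXCL1 to CXCL3 sum.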

Additional observations from a re-analysis of the deposited data

How the results depend on the processing

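Counts of members called stayed within 1.5 times the value reported in 254 of 285 alternative values over the 11 comparisons, and fold changes of members kept their direction and call in 1275 of 1317. IL18 kept its calls with AE (-0.87 to -0.73), TE (-1.07 to -0.96), SE (-0.93 to -0.70) and in the mean of the 4 treatments (-0.86 to -0.73) throughout, and with HTyr (-0.57 to -0.50) it was never called. A pseudocount of 0.1 gave 2 members called with AE, and a pseudocount of 1 gave 1 with TE and 1 in the mean of the 4 treatments. No filter gave 1 with TE. A mean of at least 5 TPM leaves CXCL16, IL18 and LIF, and gave 1 with TE, 1 with SE, 1 in the mean of the 4, and 0 for SE against HTyr, AE or TE. The CXCL1 to CXCL3 sum leaves 5 features as members, and neither CXCL3 nor the sum itself was counted. The counts of 1 with TE and 0 for SE against HTyr, AE or TE follow from this. Median-ratio scaling gave 2 for SE against HTyr, and the 2-group fit gave 2 for SE against HTyr and 2 for SE against TE, in each case adding CXCL2. Leaving out 1 library gave 1 to 2 members with AE, 1 to 3 with TE, 3 to 4 with SE, 0 to 1 with HTyr, 2 to 3 in the mean of the 4, and 1 to 2 for SE against HTyr, AE or TE. With the replicate number as a block, 1 member was called with TE, where CXCL3 had an adjusted p of 0.0567 in limma (0.0194 to 0.138 over its alternatives), and no other count changed; 4 of 15 libraries correlated best with their own number. Signs turned for CXCL1 with AE (-0.0188 with median-ratio scaling, -0.00522 with quantile normalization, -0.21 to 0.25 with 1 library left out), with HTyr (-0.45 to 0.0142) and in the mean of the 4 (-0.43 to 0.0405), and for IL18 between SE and AE (-0.0572 with quantile normalization, -0.00271 to 0.0711 with 1 library left out), none of them called. The cause was not tested. The depth of each library is unknown, and the rounding to hundredths limits CXCL1, CXCL2 and CXCL3.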

Other observations

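Between treatments, the regulator and cytokine lists differed mostly with SE. Against HTyr, SE was called lower for 5 of the 25 NF-kB and decay regulators, BCL3, ZFP36, CEBPB, FOSL1 and JUN, and higher for none, where 7.36% of all genes were called in either direction. Against AE it was lower for ZFP36, CEBPB and JUN and higher for NFKBIE, and against TE lower for BCL3, ZFP36, CEBPB and JUN and higher for BIRC3, where 4.72% and 8.36% of all genes were called in either direction. Of the 15 other cytokines tested, EBI3 was higher with SE than with AE and TE, GDF15 was lower with SE than with AE, and TSLP was lower with SE than with TE. AE in turn was called lower than HTyr for FOSL1, and TE for FOSL1 and BIRC3, where 1.34% and 0.705% of all genes were called. FOSL1 averaged 63.68, 57.99, 54.44 and 99.0 TPM with AE, TE, SE and HTyr, against 103.2 TPM in untreated cells. BIRC3 averaged 3.943, 2.73, 4.89 and 4.827 TPM in the same order, against 8.58 TPM in untreated cells. Between AE and TE no gene of these lists was called, where 0.0873% of all genes were.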
